A study of Trametes gibbosa with 15 samples.

Results

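The comparison sets cultured mycelium of Trametes gibbosa (also Lenzites gibbosa), a white-rot fungus, strain CB-1, after 7 days with wood against mycelium after 3 days with wood. Its members are 6 of the 15 libraries of the study, 3 of day 7 and 3 of day 3, taken by their titles. All cultures stood in liquid low-nitrogen medium with glucose at 25 °C for 10 days. Those of both wood groups then received 2 g of poplar chips (Populus simonii × P. nigra) and were harvested 7 or 3 days later, while the control was harvested at 10 days without chips (3 libraries). Cultures of day 7 were therefore 17 days old, those of day 3 were 13 days old and the controls 10, so time with wood and age of the culture cannot be told apart. Per the labels, the 15 bottles of each group made up 3 biological replicates, and all groups share 1 strain.

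White-rot fungi break down lignin as well as cellulose and hemicellulose. They secrete peroxidases and laccases that oxidise lignin, and glycoside hydrolases and lytic polysaccharide monooxygenases that cut the polysaccharides, and they take up the released sugars through membrane transporters. The files used here pair no gene identifier with a name or product, so genes appear by identifier and no enzyme is described. For the same reason no list of lignin, cellulose or transporter genes could be formed, no marker of mycelium was checked, and no sequence is shown.

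The day 7 libraries held 35419940, 45927894 and 44248413 estimated counts, and the day 3 libraries held 32963058, 44044027 and 46377457. Library codes place replicate 1 of both days in a first series, with the controls, and replicates 2 and 3 of both days in a second one. Spearman correlations between libraries, across genes, were 0.960 to 0.975 within day 7 and 0.960 to 0.969 within day 3. Between day 7 and day 3 they were 0.950 to 0.968, so over both series the days overlapped with the replicates in overall likeness. The lowest values within a day, 0.960, came from pairs across the series. Within the second series the replicates correlated by 0.975 at day 7 and 0.969 at day 3. Day 7 and day 3 libraries of that series correlated by 0.963 to 0.968, so there the ranges did not overlap, with 1 pair of replicates per day. Day 7 libraries correlated with the controls by 0.925 to 0.938 and day 3 libraries by 0.933 to 0.940. The low ends of both ranges came from libraries of the second series. Replicate 1, in the same series as the controls, correlated with them by 0.936 to 0.938 at day 7 and 0.939 to 0.940 at day 3. Levels are given in CPM, which are counts relative to library size after scaling by TMM, and levels between genes are compared only in FPKM, which accounts for length. The SE of a fold change is its size divided by the square root of the F statistic.

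Few genes passed the test between day 7 and day 3, and most of those fell. Of 11386 genes tested by edgeR's quasi-likelihood test, 24 were lower at day 7 (0.211%) and 4 were higher (0.0351%). Such calls needed a change of 2-fold or more and a Benjamini-Hochberg adjusted p under 0.05. The median log2 fold change was -1.28 among the 24 lower genes and 1.04 among the 4 higher ones, against -0.00 over all genes tested. Without the limit on size, 85 genes were lower (0.747%) and 24 higher (0.211%), with medians of -0.82 and 0.60. All 109 of these genes had a mean of 10 CPM or more on one of the days, as did 7600 of all genes tested. At an unadjusted p under 0.05, 1034 genes were lower and 880 higher, together 16.8% of genes.

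The counts depended on the libraries used. In place of 24 lower genes there were 12 without replicate 2 of day 3, 6 without replicate 3 of day 7 and 4 without replicate 2 of day 7. In place of 4 higher genes there were 0 without replicate 2 of day 7 or without replicate 2 of day 3 (edgeR, with 652 and 632 higher genes at an unadjusted p under 0.05). There were 2 higher without the unnumbered day 5 library, without control replicates 1 or 2 or without replicate 3 of day 3, and 1 without replicates 1 or 2 of day 5 or replicate 3 of day 7. DESeq2 called 108 lower and 52 higher genes, which hold all 24 and all 4. None of the 28 genes changed sign in the 15 fits without 1 library or under the 13 other settings.

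The split between lower and higher genes moved with the scaling. With library totals in place of TMM factors, 25 genes were lower and 15 higher, and the median of all genes lay 0.11 (log2) above day 3. Without the limit on size that scaling gave 85 lower and 236 higher, so more genes were higher than lower. The deposited FPKM values, tested with limma, gave 22 lower and 10 higher on the log2(FPKM + 1) scale and 29 lower and 17 higher on the log2(FPKM + 0.1) scale. Without the limit on size these gave 56 lower and 127 higher, and 67 lower and 146 higher.

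**Figure D1:**
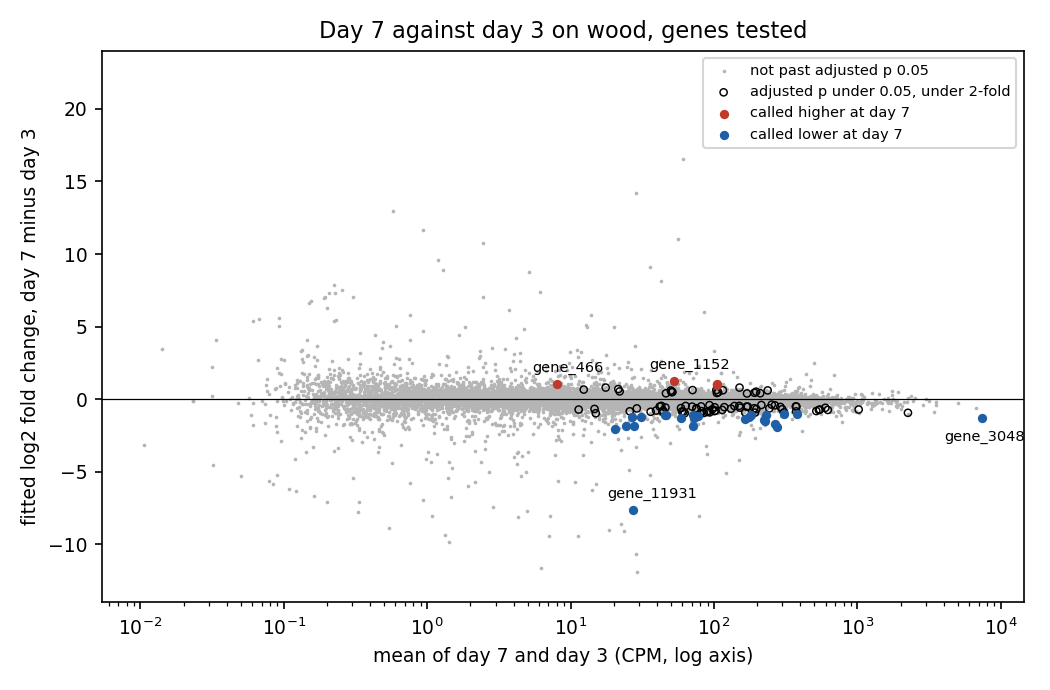
Fitted log2 fold change of day 7 over day 3 (vertical axis) against the mean level of both days in CPM (horizontal log axis), 1 point for each of 11386 genes. The 24 genes called lower and 4 called higher lie mostly close to the 2-fold limit and above 10 CPM, apart from gene_11931 with a fitted value of -7.65, and many points with larger fitted changes did not pass the test.

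A large fitted change was seldom enough to pass. There were 429 genes with a fitted fall of 2-fold or more and 426 with a fitted rise of that size whose adjusted p was 0.05 or more in the same test. Libraries without any shared value were common too: all 3 day 7 libraries lay below all 3 day 3 libraries in 935 genes (8.21%) and above them in 907 (7.97%). Among the 28 called genes this held for 23 of 24 lower and 4 of 4 higher. The exception was gene_11545, named after its values were seen, which had 209, 90.6 and 111 CPM at day 7 against 606, 159 and 204 CPM at day 3. In that gene the library of the first series was the highest on both days.

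Among the falling genes, gene_11960 was the one that the naming rule chose for moving towards the control level. It had 23.8, 30.7 and 37.8 CPM at day 7 against 85.8, 133 and 115 CPM at day 3. Every day 7 library was lower than every day 3 library. The log2 fold change was -1.86 (SE 0.15, edgeR adjusted p = 0.00074). The controls held 21.7, 21.8 and 18.7 CPM, and the fitted log2 difference from them was 0.19 at day 7 (edgeR adjusted p = 0.44) and 2.05 at day 3 (edgeR adjusted p = 2.2e-05). Per length, gene_11960 stood at 60.1 ± 9.61 FPKM at day 7 and 214 ± 42.2 FPKM at day 3 (SD, n = 3 each). Leaving out any 1 of the 15 libraries kept its call.

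The falling gene chosen for moving away from the control was gene_2989. It had 5.23, 5.84 and 9.63 CPM at day 7 against 13.2, 47.5 and 41.7 CPM at day 3, with 11.4, 13.8 and 9.77 CPM in the controls. The groups did not overlap, but the day 3 library of the first series was at the control level while both of the second series stood above it. The log2 fold change was -2.08 (SE 0.35, edgeR adjusted p = 0.029). Its fitted log2 difference from the control, with the series term, was -1.69 at day 7 and 0.39 at day 3, a move away by size. By group means gene_2989 moved towards the control. It averaged 6.90 ± 2.38 CPM at day 7 and 34.1 ± 18.4 CPM at day 3, against 11.6 ± 2.03 CPM in the controls (SD, n = 3 each). The call of gene_2989 was lost without replicate 1, 2 or 3 of day 3 and without replicate 2 or 3 of day 7 (edgeR adjusted p of 0.054 to 0.12), without the series term (edgeR adjusted p = 0.17), with the 6 libraries alone (edgeR adjusted p = 0.13) and in the second series alone (edgeR adjusted p = 0.055).

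Calls of 3 lower genes held in each of the 15 fits that left out 1 library: gene_11960, gene_5750 and gene_9817, of which the last 2 are named after their values were seen. Of the 13 other settings, 12, 11 and 9 kept these calls, in that order. The call of gene_11960 was lost with a replicate block over the 6 libraries (edgeR adjusted p = 0.12). With the 6 libraries alone and no block, gene_11960 was the only lower gene called. For gene_5750 the libraries of day 7 held 16.8, 16.0 and 15.8 CPM, and those of day 3 held 39.2, 33.0 and 39.6 CPM. Its replicates lay close together on both days, and the controls stood lower still, at 10.8, 8.95 and 10.2 CPM. The log2 fold change of gene_5750 was -1.20 (SE 0.11, edgeR adjusted p = 0.00079). For gene_9817 the values were 66.1, 130 and 121 CPM at day 7 against 146, 263 and 326 CPM at day 3, with the first series low on both days. Its log2 fold change was -1.20 (SE 0.13, edgeR adjusted p = 0.0043), and the controls held 56.0, 75.2 and 62.2 CPM. Another 8 lower genes kept their call in 12 to 14 of the 15 fits, and gene_7835 kept it in 1, the fewest.

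The most abundant gene that fell was gene_3048, singled out after its values were seen. It had 2610, 4774 and 5959 CPM at day 7 against 7641, 11836 and 11309 CPM at day 3, with no overlap. Its share of all counts was 0.481% ± 0.172 at day 7 and 1.03% ± 0.221 at day 3 (SD, n = 3 each). In FPKM it ranked 3, 1 and 1 among all genes of the day 7 libraries and 1 in each day 3 library. The log2 fold change was -1.26 (SE 0.16, edgeR adjusted p = 0.0081), and the call was lost without replicate 2 of day 7 (edgeR adjusted p = 0.063). It was also lost without the series term, with the 6 libraries alone and in the second series alone (edgeR adjusted p of 0.21, 0.091 and 0.055). The controls held 7757, 9681 and 8140 CPM, and the fitted log2 difference from them was -1.64 at day 7 and -0.38 at day 3.

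The largest fitted fall belonged to gene_11931, also singled out after its values were seen. It had 9, 11 and 11 counts at day 7, or 0.229, 0.216 and 0.237 CPM, against 324, 6473 and 194 counts at day 3, or 9.62, 148 and 4.13 CPM. The controls held 10, 8 and 9 counts. All 3 day 3 libraries were above every other library shown, but they ranged 35.0-fold among themselves on the scale of CPM + 0.1. Its fitted log2 fold change was -7.65 (SE 1.33, edgeR adjusted p = 0.034). With replicate 2 of day 3 left out it was -4.69. Its call was lost without replicate 1, 2 or 3 of day 7, without replicate 1 of day 5 and without the unnumbered day 5 library (edgeR adjusted p of 0.056 to 0.17), with the 6 libraries alone (edgeR adjusted p = 0.22) and in the second series alone (edgeR adjusted p = 0.14).

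The 4 rising genes had log2 fold changes of 1.01 to 1.23, and their calls held in 2 to 11 of the 15 fits that left out 1 library. For gene_1152, which moved away from the control in the fit, the libraries held 74.7, 74.8 and 67.6 CPM at day 7 against 50.8, 24.8 and 22.8 CPM at day 3. The controls lay between the days, at 56.3, 59.9 and 55.1 CPM. By group means gene_1152 moved towards the control. The means were 72.4 ± 4.09 CPM at day 7, 32.8 ± 15.6 CPM at day 3 and 57.1 ± 2.46 CPM in the controls (SD, n = 3 each). The log2 fold change of gene_1152 was 1.23 (SE 0.19, edgeR adjusted p = 0.016), and the call was lost without replicates 2 or 3 of day 3 or replicates 2 or 3 of day 7 (edgeR adjusted p of 0.057 to 0.090). The call was also lost without the series term and with the 6 libraries alone (edgeR adjusted p of 0.14 in each). For gene_10586 the values were 103, 157 and 158 CPM at day 7 against 36.0, 102 and 77.8 CPM at day 3. The lowest day 7 library and the highest day 3 library lay next to each other and came from different series. Its log2 fold change was 1.04 (SE 0.20, edgeR adjusted p = 0.044), and the controls held 65.8, 57.9 and 77.2 CPM. The fitted log2 difference from the control, with the series term, was 0.42 at day 7 and -0.61 at day 3, a move towards the control by size. By group means the move was away from it, since gene_10586 averaged 139 ± 31.2 CPM at day 7 and 71.9 ± 33.4 CPM at day 3, against 67.0 ± 9.71 CPM in the controls (SD, n = 3 each).

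The other two risers are named because only 4 genes rose. For gene_10450 the libraries held 157, 132 and 129 CPM at day 7 against 103, 64.0 and 49.4 CPM at day 3 (edgeR adjusted p = 0.044, log2 fold change 1.01, SE 0.20). The controls held 181, 211 and 151 CPM and overlapped with the day 7 libraries, and the fitted log2 difference from them was 0.05 at day 7 and -0.96 at day 3. For gene_466 they held 8.15, 11.9 and 12.3 CPM at day 7 against 3.68, 6.23 and 5.93 CPM at day 3 (edgeR adjusted p = 0.044, log2 fold change 1.04, SE 0.21), with 2.82, 4.42 and 3.09 CPM in the controls. It was the only riser also called above the control at day 7, with a fitted log2 difference of 1.33 (edgeR adjusted p = 0.0017). For gene_1152 that difference was 0.71 (edgeR adjusted p = 0.029), which missed only the 2-fold limit. The calls of gene_10586 and gene_10450 were lost in 12 of the 15 fits that left out 1 library and that of gene_466 in 13, with edgeR adjusted p of at most 0.16, 0.17 and 0.17. These fits included each one that left out a library of day 7 or day 3. All 3 calls were also lost without the series term (edgeR adjusted p of 0.17 to 0.33), with the 6 libraries alone (edgeR adjusted p of 0.13 to 0.14) and in the second series alone (edgeR adjusted p of 0.11 to 0.21). Per length, day 7 and day 3 averaged 86.9 ± 23.2 and 39.1 ± 23.1 FPKM for gene_10586, 73.7 ± 4.03 and 29.1 ± 14.9 FPKM for gene_10450, 9.33 ± 0.981 and 4.02 ± 2.06 FPKM for gene_1152, and 4.66 ± 0.901 and 2.11 ± 0.536 FPKM for gene_466 (SD, n = 3 each).

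**Figure D2:**
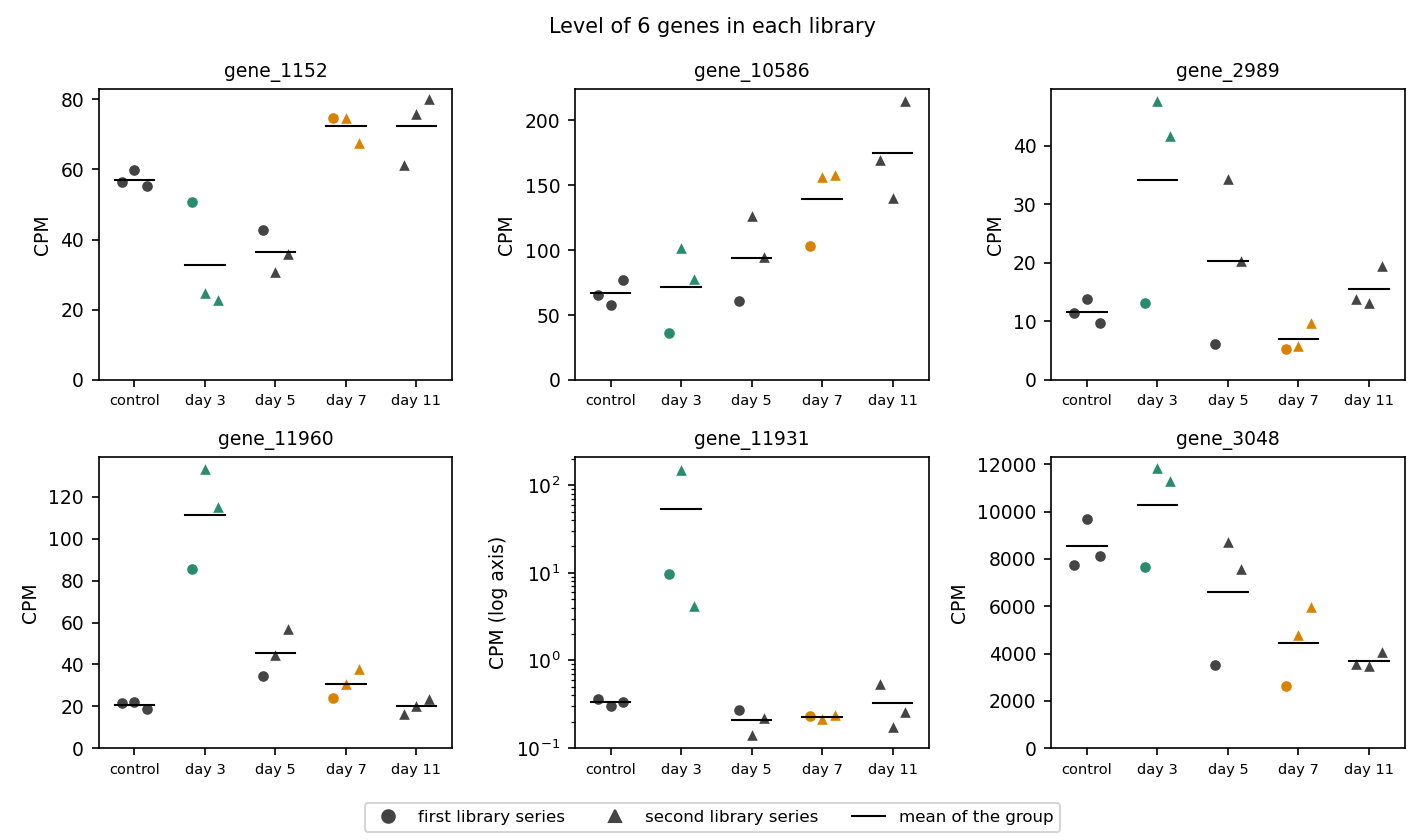
CPM of 6 genes in each library (vertical axes from 0, except a log axis for gene_11931), with groups from the control through day 11 along the horizontal axes. Circles are libraries of the first series, triangles those of the second, bars are group means, day 7 is orange and day 3 green. In 5 panels the day 7 libraries are clear of the day 3 libraries, and in that of gene_10586 their edges nearly meet at 103 and 102 CPM.

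The falling genes stood in different places relative to the control. Against the control, 12.5% of all genes were called at day 7 and 9.15% at day 3, in either direction, by the same test and limits. Of the 24 lower genes, 8 were called above the control at day 3 and not at day 7. Their fitted log2 differences from the control were -1.12 to 0.93 at day 7 and 1.11 to 6.54 at day 3. Of these 8, gene_5750, gene_3843 and gene_11545 were still above the control at day 7 in the fit, by 0.73, 0.93 and 0.76. Their edgeR adjusted p were 0.0011, 0.0030 and 0.025, so they missed only the 2-fold limit. By group means gene_11545 was not above it, with 137 ± 63.4 CPM at day 7 and 142 ± 6.73 CPM in the controls (SD, n = 3 each). Its day 7 libraries of the second series, at 90.6 and 111 CPM, lay below all controls. Another 8 were not called against the control at day 3 and were called below it at day 7, with differences of -2.02 to -1.03 at day 7 and -0.79 to 0.78 at day 3. Of these, gene_11778 had an edgeR adjusted p of 0.048 at day 3 and missed only the 2-fold limit there. A further 6 were called on neither day, with -0.84 to -0.41 at day 7 and 0.27 to 0.90 at day 3. Each of these 6 missed only the 2-fold limit on at least 1 of the days, with an edgeR adjusted p of 0.011 to 0.035 there. Of the remaining pair, gene_144 was above the control on both days (1.15 at day 7 and 2.54 at day 3) and gene_11033 below it on both (-2.35 at day 7 and -1.28 at day 3). Since the genes were chosen for being lower at day 7 than at day 3, and both comparisons share the controls, these counts describe the genes and test nothing.

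By the size of the fitted difference, 12 of the 24 lower genes moved away from the control and 12 towards it, and in 13 the difference changed sign. Of the 4 higher genes, 2 moved away and 2 towards it. Among the 85 lower genes without the limit on size, 61 moved away and 24 towards the control, and among the 24 higher genes 19 moved away and 5 towards it. Of those 85, 14 were called above the control at day 3 and not at day 7, 22 were called below it at day 7 and not at day 3, 11 were below it on both days, 1 was above it on both and 37 were called on neither. Genes called on neither day include some that missed only the 2-fold limit. Of those 24 higher genes, 7 were called above the control at day 7 and not at day 3. All 3 controls belong to the first series, so the fitted positions rest on the series term. By group means, several of the 12 lower genes moving away, gene_2989 among them, moved towards the control instead. Of the 4 higher genes, gene_1152 moved towards it and gene_10586 away from it by group means. The same counts over all genes tested were not made. Replicate 1 of each day gives a reading within the first series. In the 24 lower genes, the day 7 library of that series was above all controls in 5, within their range in 2 and below all of them in 17. The day 3 library was above all controls in 17, within in 3 and below in 4, and 10 genes were below all controls at day 7 and above all of them at day 3.

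**Figure D3:**
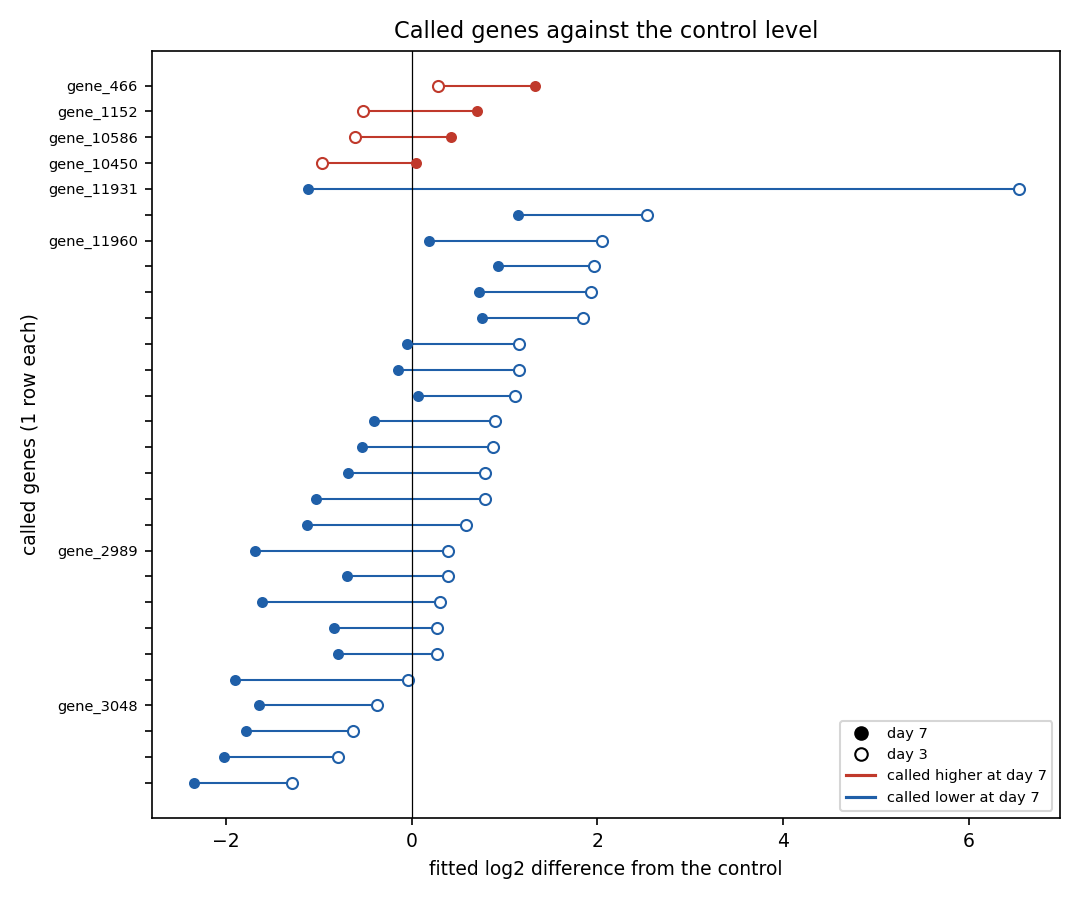
Fitted log2 difference from the control (horizontal axis) at day 7 (filled) and day 3 (open) for the 28 called genes, 1 row each, with the 4 higher genes in red at the top and the 24 lower genes in blue. Of the lower genes, 18 stand below the control line at day 7 and 5 at day 3.

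Both library series showed each called change in the same direction. In the second series (2 against 2 libraries) the log2 ratio of day 7 over day 3, on the scale of CPM + 0.1, had a median of -1.22 over the 24 lower genes and a range of -6.26 to -0.81. In the first series (1 against 1) the median was -1.47 and the range -4.89 to -0.79. The 4 higher genes ranged from 0.82 to 1.57 in the second series and from 0.55 to 1.52 in the first. Those same libraries made the calls, so the shared direction is a description. With the second series fitted alone, 10 genes were called lower and 3 higher (edgeR), of which 3 and 1 are among the genes above. With the 6 libraries of both days alone, the same test called 1 lower and 5 higher, and 1 and 0 of them are among these genes.

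**Figure D4:**
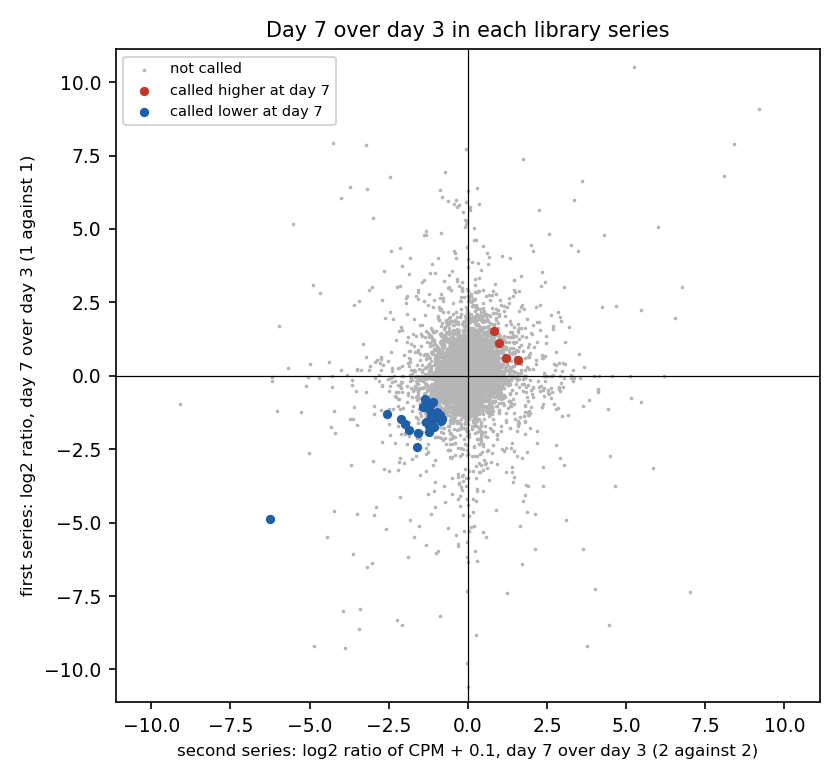
Log2 ratio of day 7 over day 3 on the scale of CPM + 0.1 in the first series (vertical axis, 1 against 1 library) and the second (horizontal axis, 2 against 2), 1 point per gene. All 24 genes called lower lie at the lower left and all 4 called higher in the upper right, while many genes not called have a large ratio in 1 series and one near 0 in the other.

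Days 5 and 11 are not compared in the contrast, but their libraries were in the same fit and helped set its spread. Their means are set beside the called genes as a description. The mean CPM of day 5 lay between those of day 7 and day 3 in 23 of 24 lower genes and 4 of 4 higher genes, against 51.0% of all genes tested. The exception was gene_11931, which averaged 0.210 CPM at day 5. Day 3 had the highest mean of the 5 groups in 21 of the 24 lower genes, against 18.7% of all genes, and the control had it in the other 3. From day 7 to day 11 the mean moved further from that of day 3 in 18 of 24 lower and 3 of 4 higher genes. The same numbers came from the libraries of the second series alone. Without the limit on size, 32 of the 85 lower and 7 of the 24 higher genes moved further at day 11. No called gene returned past its day 3 mean at day 11, while 2 of the 85 lower genes without the limit on size did. The day 11 counts have no share over all genes tested beside them. For gene_11960 the means were 45.3 ± 11.3 CPM at day 5 and 19.9 ± 3.50 CPM at day 11, and for gene_10450 they were 94.7 ± 30.9 and 239 ± 62.7 CPM (SD, n = 3 each). The genes were chosen for an extreme at day 3 or day 7, which by itself places other days between, and the means carry no series term.

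**Figure D5:**
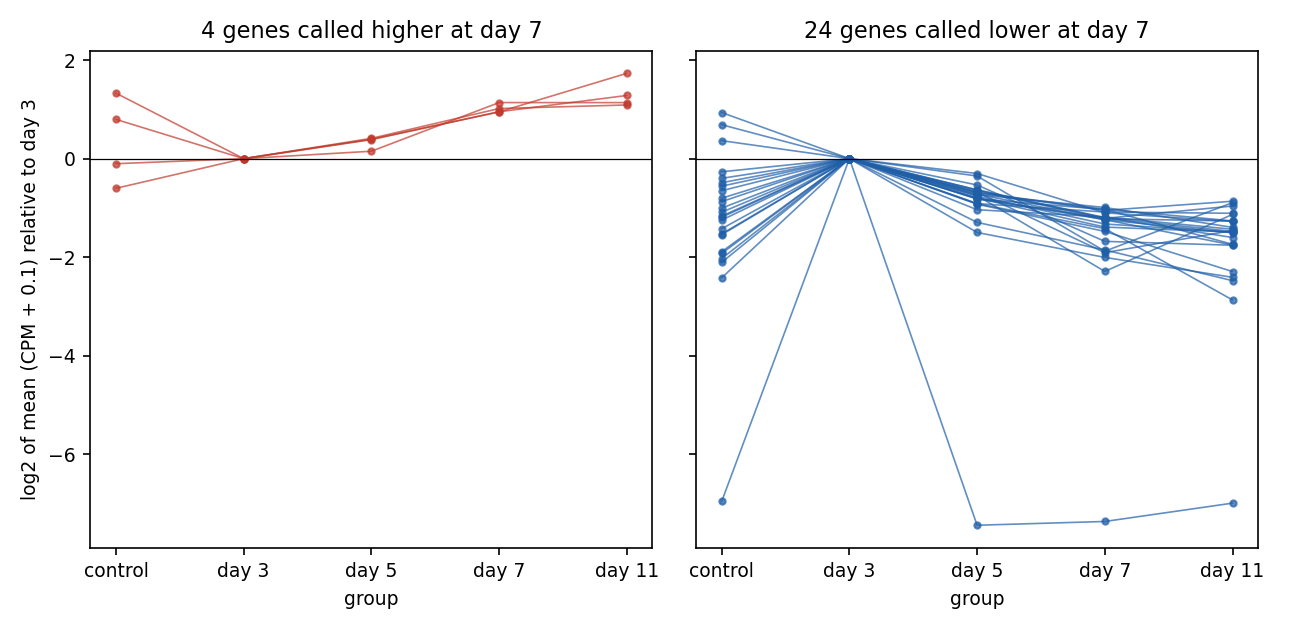
Log2 of mean CPM + 0.1 relative to day 3 (vertical axis) in the control and at days 3, 5, 7 and 11 (horizontal axis), 1 line per called gene, with the 4 higher genes on the left and the 24 lower genes on the right. In 21 of the 24 lower genes the day 3 mean is the highest, and gene_11931 stands apart as near its control level at days 5, 7 and 11.

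The most abundant genes took smaller shares of the counts in each day 7 library than in any day 3 library. In the top 10 of a library lay 3.55%, 4.15% and 4.14% of counts at day 7 against 4.69%, 5.39% and 5.06% at day 3, with no overlap, and 7.76% ± 0.233 (SD, n = 3) in the controls. The 100 most abundant held 16.7% ± 0.141 at day 7 and 18.7% ± 0.611 at day 3 (SD, n = 3 each). In both measures the exact permutation p was 0.10, two-sided, which is the smallest that 3 against 3 libraries allow. The 24 lower genes, chosen on these libraries, held 0.667% ± 0.187 of counts at day 7 and 1.47% ± 0.236 at day 3, against 0.845% ± 0.101 in the controls (SD, n = 3 each). Genes with 1 FPKM or more numbered 9892, 9783 and 9633 at day 7 and 9659, 9637 and 9692 at day 3, and these ranges overlap (exact permutation p = 0.40, two-sided).

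Newly assembled loci, which the authors added to the reference genes, contributed no call in the main fit. Of 847 such loci 616 were tested, 0 were called and 0 passed an adjusted p under 0.05 (edgeR), with 20 higher and 24 lower at an unadjusted p under 0.05, together 7.14%. Over all 11386 genes tested, 0.211% were called lower and 0.0351% higher, and 16.8% had an unadjusted p under 0.05. At calls this rare, 0 among 616 says little about the loci. DESeq2 called 7 of them, beside 108 lower and 52 higher over all genes. With limma on log2(FPKM + 0.1) 2 loci were called, and 1 was called without replicate 1 of day 3 or without replicate 2 of day 5 (edgeR). Their median log2 fold change was 0.06, beside -0.00 over all genes. Together they held 0.584%, 1.06% and 0.437% of counts at day 7 against 0.527%, 0.579% and 0.738% at day 3.

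The locus with the smallest p among those that were higher was Trametes_gibbosa_newGene_5, on scaffold 50 from 23436 to 30133 on the plus strand, with 14 transcripts. It overlaps 2 other new loci, 1 of them on the other strand, and since counting by strand is not stated, reads of overlapping loci may be shared. It had 10.9, 11.0 and 12.3 CPM at day 7 against 6.83, 6.76 and 7.34 CPM at day 3. The groups did not overlap, but at a log2 fold change of 0.71 (SE 0.15) the locus missed the threshold, with an edgeR adjusted p of 0.059. On the lower side it was Trametes_gibbosa_newGene_814, on scaffold 1 from 1514323 to 1514891 on the plus strand, with 1 transcript of 2 exons and no overlap with another new locus. It had 2.79, 2.50 and 1.44 CPM at day 7 against 4.45, 4.63 and 3.98 CPM at day 3 (log2 fold change -0.97, SE 0.22, edgeR adjusted p = 0.063). The sources used here do not name the genome build of these positions.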

How the data were processed

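Per the labels' protocols, poly-A RNA was sequenced as paired-end Illumina libraries. The tools HISAT2, StringTie, DESeq 1.10.1 and DESeq2 are named, without their roles, per the submitters' processing notes, and no source used here names the genome build. Deposited by the authors were estimated counts per gene, which are whole numbers and were used as deposited, and FPKM values, scaled by length and mapped fragments and used for alternatives and for levels between genes. The authors' file of newly assembled loci names StringTie as their source.

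Each table column was assigned by its sample's title. One day 5 count column matches no title, so it entered as an unnumbered library of the second series. The counts went into edgeR 4.0.16 under R 4.3.3: filterByExpr kept 11386 of 12885 genes, followed by TMM scaling and a robust quasi-likelihood fit of group and library series over all 15 libraries (9 residual degrees of freedom, biological coefficient of variation 38.8%). The contrast was day 7 minus day 3, with Benjamini-Hochberg adjustment over all genes tested. Calls needed an adjusted p under 0.05 and 2-fold or more. Shares were compared by an exact permutation test over the 6 libraries.

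In each direction the naming rule took the called gene with the largest log2 fold change that moved away from the control and the one that moved towards it. Both moves were read from the fitted difference. It asked for 10 CPM or more in a group, no overlap and at most a 5-fold range within a day. It also took the new locus with the smallest p in each direction. Members, lists, rule and tests were chosen with earlier results of these data known. The fit was checked on counts simulated from its own fitted means and spread, so that check cannot show whether the spread suits these data. Within a day, pairs of libraries differed by far more than sampling noise (137 to 292 in chi-square over its degrees of freedom). Alternatives were DESeq2 1.42.0, limma 3.58.1 on FPKM with pseudocounts of 1 and 0.1, other scaling and filters, other sets of libraries, a replicate block and leaving out each library. Lists by enzyme product were planned and could not be formed.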

Additional observations from a re-analysis of the deposited data

Results flagged for a closer look

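The difference from the shared control was not the same at day 7 and day 3, by the test of day 7 against day 3 itself, in 28 genes, 4 of them higher and 24 lower at day 7 (edgeR, adjusted p under 0.05 and 2-fold or more). Time with wood and age of the culture cannot be told apart in that difference. The named genes among them had log2 fold changes of 1.23 (gene_1152), 1.04 (gene_10586), 1.01 (gene_10450), 1.04 (gene_466), -2.08 (gene_2989), -1.86 (gene_11960), -7.65 (gene_11931) and -1.26 (gene_3048). Dixon's test for an outlying library was not run on groups of 3.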

How the results depend on the processing

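The 4 higher genes became 0 without the series term (edgeR, 584 at an unadjusted p under 0.05), 15 with library totals, 52 with DESeq2, 10 and 17 with limma on log2(FPKM + 1) and log2(FPKM + 0.1), and 0 to 5 over fits leaving out 1 library. The 24 lower genes became 6 without the series term, 1 with the 6 libraries alone, 10 in the second series alone, 108 with DESeq2, and 4 to 27 leaving out 1 library. The other scalings and filters gave 4 higher and 24 to 27 lower. By the fitted difference, genes moving away from the control were 14, with 0 without the series term, 103 with DESeq2 and 1 to 18 leaving out 1 library. Those moving towards it were 14, with 6, 57 and 3 to 16 in that order. The cause was not tested. The share of the 10 most abundant genes was lower at day 7 by -1.28 to -0.90 percentage points leaving out 1 library, and that of the 100 most abundant by -2.38 to -1.83.

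Same-numbered libraries of both days deviated together by correlations of 0.18, 0.087 and 0.041, against -0.149 to 0.082 for unlike numbers. With the series removed, the same-numbered values were -0.566, -0.078 and -0.121, against -0.116 to 0.273 for unlike numbers. What that fit leaves over cancels out within each day and over the wood libraries of the first series. These values are thus partly set in advance and cannot show whether the numbers are pairs. The main fit did not take the numbers as pairs, and fits with a replicate block are given beside it. A replicate block beside the series term, over numbered libraries, gave 1 higher and 14 lower genes, and a replicate block over the 6 libraries gave 1 higher and 0 lower (edgeR, 738 lower at an unadjusted p under 0.05). All 109 genes at an adjusted p under 0.05 averaged 10 CPM or more on a day, and no gene under that level passed.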
